A study of Mus musculus with 6 samples.

Results

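The 9 genes described here encode proteins of growing axons: Gap43, Basp1 and Marcks, the stathmins Stmn1, Stmn2, Stmn3 and Stmn4, and the collapsin response mediator proteins Dpysl2 and Dpysl3. They were chosen by name, with earlier results of these data known. Counts of members set beside all probe sets are therefore descriptions and not tests of the group. Every probe set whose only gene symbol in the array annotation was one of the 9 was taken, which gave 19 of the 22690 probe sets. Of these, 17 probe sets of 8 genes were bright enough to test, with a mean above a log2 value of 4. Messenger RNA was measured in the cochlear nucleus, where auditory nerve fibres end in the brainstem. The mice were at postnatal day 21, and 1 cochlea of each had received tetrodotoxin (TTX) from an osmotic pump for 24 h. Tetrodotoxin blocks voltage-gated sodium channels and so silences the nerve. The 3 ipsilateral samples came from the nucleus on the infused side and the 3 contralateral samples from the opposite side of treated mice, each a pool of tissue from 10 to 12 animals hybridised to 1 Affymetrix array. Strain, sex and genotype are not given in the labels. Mice without an infusion were not analysed here, so it cannot be told which side differed from undisturbed tissue. The values are log2 GCRMA values, so a difference of 1 is a doubling of the signal, and levels of different probe sets are not set against each other because probes differ in affinity.

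GAP-43 is a membrane protein of growth cones and presynaptic terminals that binds calmodulin and is phosphorylated by protein kinase C. With BASP1 (also called CAP-23) and MARCKS it forms a functional group of acylated proteins that collect at the inner face of the membrane, bind the lipid PIP2 and shape the actin beneath it. Stathmins bind tubulin dimers and destabilize microtubules, and the collapsin response mediator proteins carry semaphorin signals to the cytoskeleton, while Dpysl2 protein also promotes microtubule assembly. In rats GAP-43 is known to reappear in auditory brainstem nuclei after damage to the cochlea.

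Gap43 was the member with the largest difference between the sides, a 1.43-fold higher signal on the infused side, and a probe set of the ubiquitous stathmin Stmn1 came next at 1.23-fold higher. Marcks was higher on the infused side by 0.07 to 0.25 on the log2 scale over its 5 bright probe sets, and the remaining members lay between -0.14 and 0.08. None of these differences passed the test over all genes: limma gave 0 of the 17 member probe sets tested, and 0 of all 15298, a Benjamini-Hochberg adjusted p under 0.05. At an unadjusted p under 0.05 limma gave 2 of the 17, both higher on the infused side, where 2.38% of all probe sets tested had such a p, 1.16% higher and 1.22% lower. By the brightest probe set of each gene, 5 of the 8 genes tested were higher and 3 lower, with a median difference of 0.03 beside -0.003 over all 8754 genes tested. In bulk tissue, more cells of a type and more RNA per cell cannot be told apart.

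**Figure D1:**
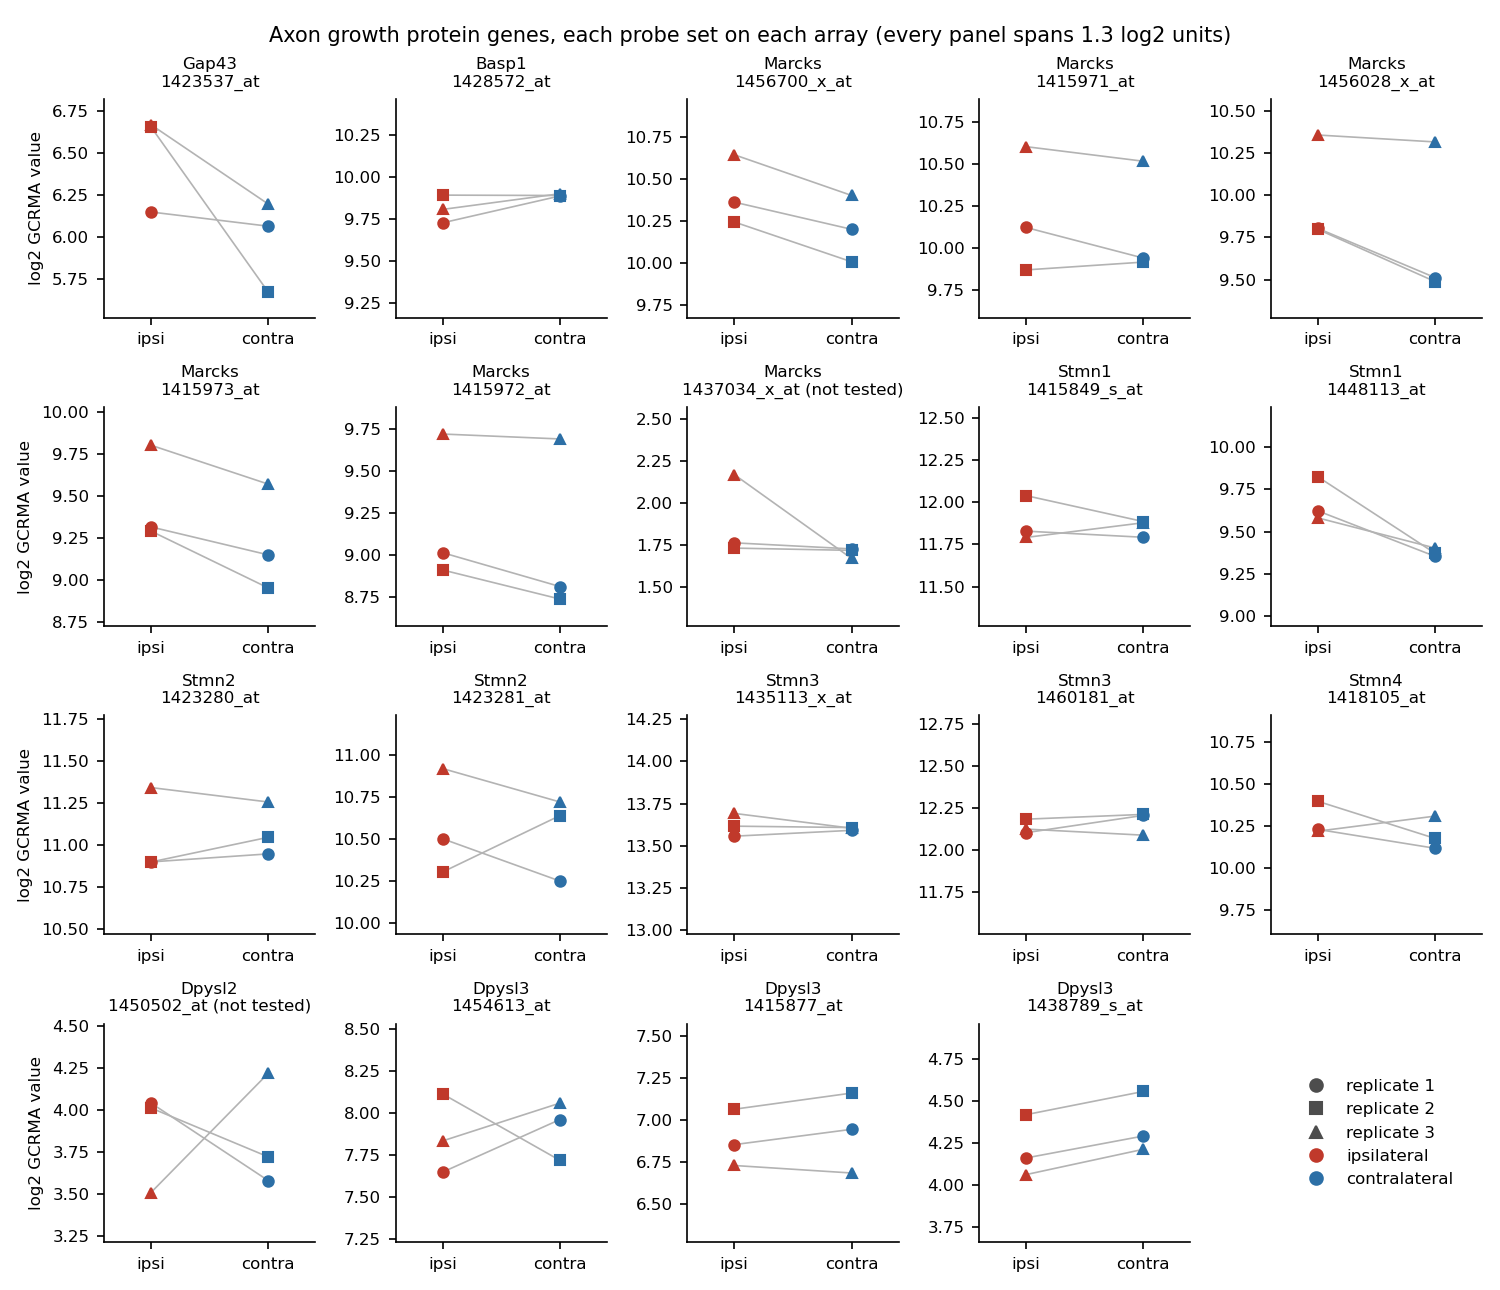
Log2 GCRMA values (vertical axis, 1.3 log2 units in every panel) of the 19 probe sets of the 9 genes on the ipsilateral (red, left) and contralateral (blue, right) arrays, with a marker shape for each replicate number and a line joining both sides of a number. Gap43 stands higher on the infused side in 3 of 3 replicates by unequal steps, Stmn1 probe set 1448113_at does not overlap between the sides, and Marcks is high in replicate 3 on both sides.

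Gap43 is represented by 1 probe set, 1423537_at. It measured 6.15, 6.66 and 6.67 on ipsilateral arrays 1, 2 and 3, against 6.06, 5.67 and 6.20 on contralateral arrays 1, 2 and 3. Ipsilateral arrays 2 and 3 were the highest and contralateral array 2 the lowest, while ipsilateral array 1 lay just below contralateral array 3, so the sides overlapped. The group means were 6.49 ± 0.30 ipsilaterally and 5.98 ± 0.27 contralaterally (SD, n = 3 each). The difference was 0.51 (SE 0.19, 95% confidence interval 0.05 to 0.97), which is larger than the SD of either side. Its adjusted limma p was 1.00, as it was for the other members tested. In size the difference exceeded that of 99.0% of the probe sets tested, and 49 probe sets were higher by more. By replicate number the infused side was higher by 0.08, 0.98 and 0.47.

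Gap43 thus differed between the sides mainly in replicates 2 and 3, and in those replicates choroid plexus markers differed most. The choroid plexus is the secretory epithelium of the ventricles and lies against the cochlear nucleus. All 7 of its markers tested were lower on average on the infused side, and their mean was 9.36, 4.73 and 4.91 on ipsilateral arrays 1, 2 and 3, against 8.31, 8.00 and 7.46 on contralateral arrays 1, 2 and 3. Of the 7, 5 lay at or below a log2 value of 4 on ipsilateral array 2 and 4 on ipsilateral array 3, and 0 did so on the other arrays. With this marker mean as a covariate the Gap43 difference was 0.33 and its unadjusted limma p no longer under 0.05, without replicate 2 of both sides it was 0.28, and with ipsilateral arrays 2 and 3 both left out, an alternative chosen after seeing the data, it was 0.17. Without ipsilateral replicate 1 it was 0.68. The part of tissue content in the Gap43 difference was not tested.

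**Figure D2:**
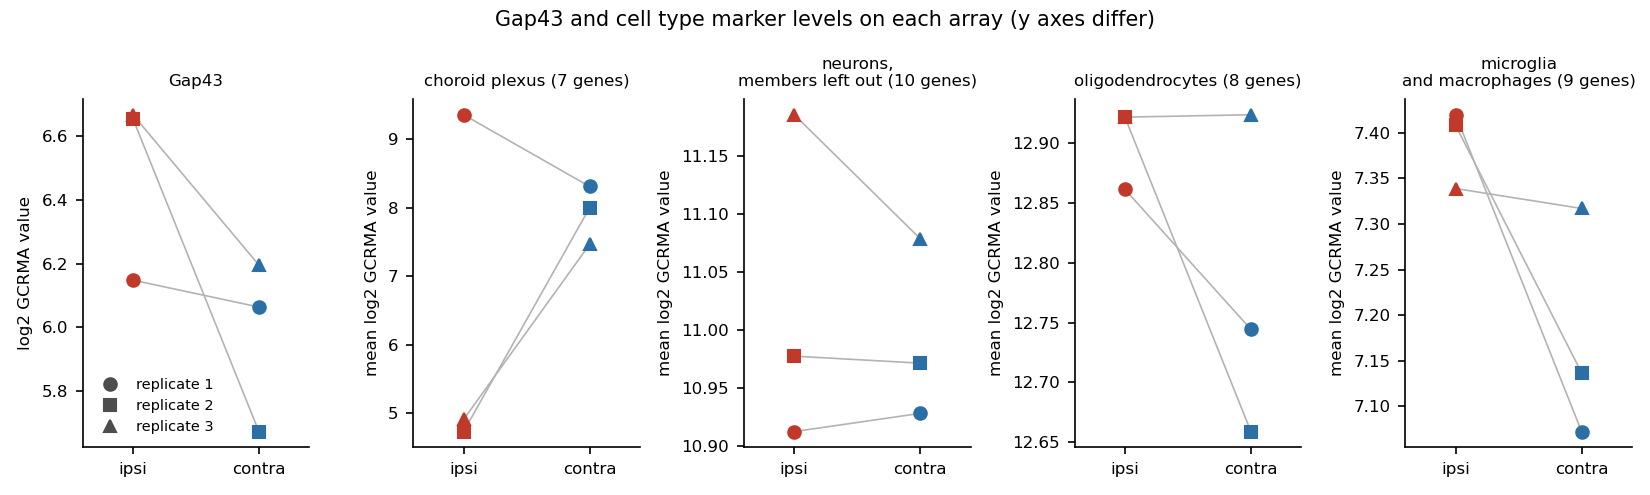
Gap43 and the mean of 4 lists of cell type markers on each array (log2 GCRMA, vertical axes with different ranges), ipsilateral in red on the left and contralateral in blue on the right, with lines joining both sides of a replicate number. Ipsilateral arrays 2 and 3 are the highest in Gap43 (6.66 and 6.67) and the lowest in choroid plexus markers (4.73 and 4.91).

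Other cell type markers differed less. Of all genes tested, 49.1% were higher on the infused side. The 10 neuronal markers that are not members averaged 10.91, 10.98 and 11.19 on the ipsilateral arrays, against 10.93, 10.97 and 11.08 on the contralateral arrays, so both sides were highest in replicate 3. All 8 oligodendrocyte markers tested were higher on the infused side by a median of 0.13, with array means of 12.86 to 12.92 ipsilaterally and 12.66 to 12.92 contralaterally. All 9 microglial and macrophage markers tested, of 11 listed, were higher by a median of 0.17. Their array means did not overlap, at 7.34 to 7.42 ipsilaterally and 7.07 to 7.32 contralaterally. Of these, C1qb (0.38), Cd68 (0.41) and Aif1 (0.26) had an unadjusted limma p under 0.05, beside 1.11% of all genes tested that were higher with such a p. With the choroid plexus marker mean as a covariate they differed by 0.37, 0.39 and 0.31, and only Aif1 kept an unadjusted limma p under 0.05. Of 9 astrocyte markers 8 were higher, by a median of 0.06 over the 9, and their array means did not overlap either, at 10.36 on each ipsilateral array and 10.18 to 10.35 contralaterally. Of 11 markers of cerebellar granule and Purkinje cells 6 were higher and 5 lower. The 6 higher were Gabra6 (0.07), Neurod1 (0.14), Cbln1 (0.14), Cbln3 (0.13), Zic1 (0.05) and Pvalb (0.03). The 5 lower were Calb1 (-0.48), Car8 (-0.31), Pcp2 (-0.30), Slc1a6 (-0.25) and Zic2 (-0.09). Of 5 immature neuron markers 3 were higher and 2 lower, with Cd24a at -0.38. Calb1 and Cd24a had an unadjusted limma p under 0.05, beside 1.33% of all genes tested that were lower with such a p. Of the 7 cochlear nucleus region markers tested, which include Atoh7 and the potassium channel gene Kcna1, 4 were higher and 3 lower, and 0 lay at or below 4 on an array, so the labelled tissue carried these markers on all 6 arrays. The part of these markers in the members' differences was not tested.

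Basp1, the second member of the acylated group, was slightly lower on the infused side on average. Its probe set measured 9.73, 9.89 and 9.81 on the ipsilateral arrays, against 9.89, 9.89 and 9.90 on the contralateral arrays. The contralateral arrays lay within 0.02 of each other (SD 0.007), and ipsilateral array 1 was the lowest. The difference was -0.08 (95% confidence interval -0.29 to 0.13), so a higher signal on the infused side of more than 1.09-fold lies outside the interval.

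Promoter windows of 2 of the 9 genes, Basp1 and Stmn3, were taken from the RefSeq promoter table (build GRCm38.p6). Windows of other members are not shown, and whether that table holds them is not given here. Each is the 250 bases before the start site, on the minus strand, from chr15:25413765-25414014 for Basp1 and chr2:181314501-181314750 for Stmn3. Capitals mark a GC box (GGGCGG, either strand) or an E-box (CANNTG, the same on both strands).
Basp1: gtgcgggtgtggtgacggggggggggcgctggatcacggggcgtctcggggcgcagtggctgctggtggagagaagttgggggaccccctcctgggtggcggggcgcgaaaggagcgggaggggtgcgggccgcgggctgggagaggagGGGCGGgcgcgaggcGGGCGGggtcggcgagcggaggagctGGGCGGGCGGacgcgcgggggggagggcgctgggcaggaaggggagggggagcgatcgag
Stmn3: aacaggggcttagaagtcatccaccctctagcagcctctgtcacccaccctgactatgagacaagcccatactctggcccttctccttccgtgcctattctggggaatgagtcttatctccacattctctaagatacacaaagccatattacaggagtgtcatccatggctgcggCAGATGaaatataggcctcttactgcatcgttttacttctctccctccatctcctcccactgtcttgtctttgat
Basp1 had 4 matches to the GC box, 2 of them overlapping, and 0 to the E-box, with a GC content of 78.8%, beside a median of 52.4% over the 32851 promoter windows of the table. Stmn3 had 1 match to the E-box and 0 to the GC box, with a GC content of 48.8%. Of all windows 32.7% held a GC box and 66.2% an E-box. The cyclic AMP response element (TGACGTCA) and the pattern TGANTCA, searched on both strands, were in neither window, and 1.55% and 6.75% of all windows held them. With N as any base, TGANTCA is wider than the AP-1 site bound by Fos and Jun, which it includes.

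Marcks, which cross-links actin at the membrane until protein kinase C or calcium-bound calmodulin releases it, had 6 probe sets, of which 5 were bright. The brightest, 1456700_x_at, measured 10.36, 10.24 and 10.64 on ipsilateral arrays 1, 2 and 3, against 10.20, 10.01 and 10.40 on contralateral arrays 1, 2 and 3. Replicate 3 was the highest of its side on both sides, and within each replicate the infused side was the higher one, by 0.16, 0.24 and 0.24. Probe set 1415973_at measured 9.32, 9.29 and 9.80 on the ipsilateral arrays, against 9.15, 8.95 and 9.57 on the contralateral arrays, with within-replicate differences of 0.17, 0.34 and 0.23. Probe set 1456028_x_at was higher on the infused side by 0.29, 0.31 and 0.04 by replicate and 1415972_at by 0.20, 0.17 and 0.03, whereas 1415971_at gave 0.18, -0.05 and 0.09. The 2 sets named _x_at may also bind related transcripts. The sixth set, 1437034_x_at, lay near the floor of the scale at 1.67 to 2.17 on the 6 arrays and was not tested.

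The 5 bright Marcks probe sets followed the same course over the 6 arrays, with Pearson correlations between 0.86 and 0.98 over their 10 pairs. Their values varied more between replicate numbers than between the sides. Averaged over both sides, 1415972_at stood at 8.92, 8.83 and 9.71 in replicates 1, 2 and 3, a range of 0.88 beside a difference of 0.13 between the sides. This range exceeded that of 98.1% of the probe sets tested, and those of the other 4 sets exceeded 79.1% to 95.5%. A replicate range above the side difference was common, at 15 of the 17 member probe sets and 84.2% of all tested. Gap43 and Stmn1 probe set 1448113_at were the 2 members where the side difference was the larger.

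**Figure D3:**
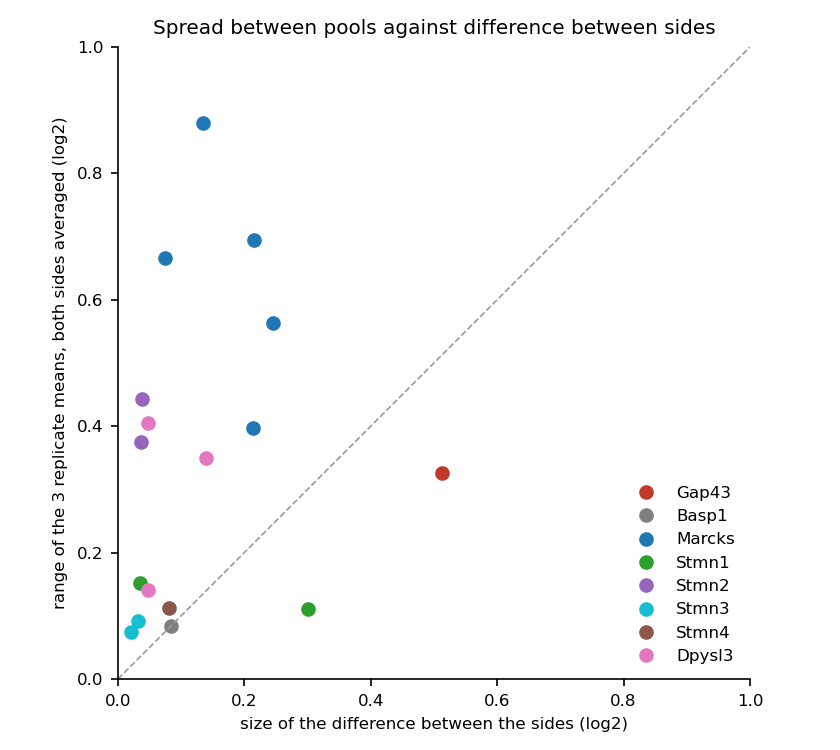
For the 17 member probe sets tested, the size of the difference between the sides (horizontal axis, log2) against the range of the 3 replicate means with both sides averaged (vertical axis, log2), with a dashed line where both are equal. The 5 Marcks points lie high, up to 0.88, and only Gap43 and 1 Stmn1 point lie below the line.

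Both sides of a replicate number were read as tissue of the same mice, which the labels do not state. Across probe sets, deviations from the side means correlated at 0.57 for replicate 3 but at 0.09 and 0.04 for replicates 1 and 2. Ipsilateral array 2 with contralateral array 1 gave 0.30. The pairing of replicates 1 and 2 is therefore uncertain, and so are results by replicate number. The replicate number was also fitted as a block, which removes the spread between numbers. The differences are the same in that fit, and the count of member probe sets at an unadjusted limma p under 0.05 became 4 of 17, all higher on the infused side, where 3.72% of all probe sets tested had such a p, 1.75% higher and 1.97% lower. These were Gap43 (95% confidence interval with the block 0.02 to 1.01), Stmn1 1448113_at (0.05 to 0.55) and the Marcks sets 1415973_at (0.02 to 0.47) and 1456700_x_at (0.003 to 0.42), and the 2 Marcks sets measure 1 gene. Without the block the Marcks intervals ran from -0.24 to 0.73 and from -0.14 to 0.57. With the choroid plexus marker mean as a covariate, and no block, Marcks 1415973_at differed by 0.15, against 0.25 without the covariate. Their adjusted limma p with the block was 0.991, and 0 of all probe sets passed. The blocked count was 0 or 1 when any 1 replicate number was left out as well, a step chosen after seeing the data. The same sign in 3 of 3 replicates was seen for 6 of the 17 member probe sets on the higher side and 1 on the lower side, where 10.7% and 13% of all probe sets tested were so. The 6 were Gap43, Stmn1 1448113_at and the bright Marcks sets other than 1415971_at, so most of them measure 1 gene.

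**Figure D4:**
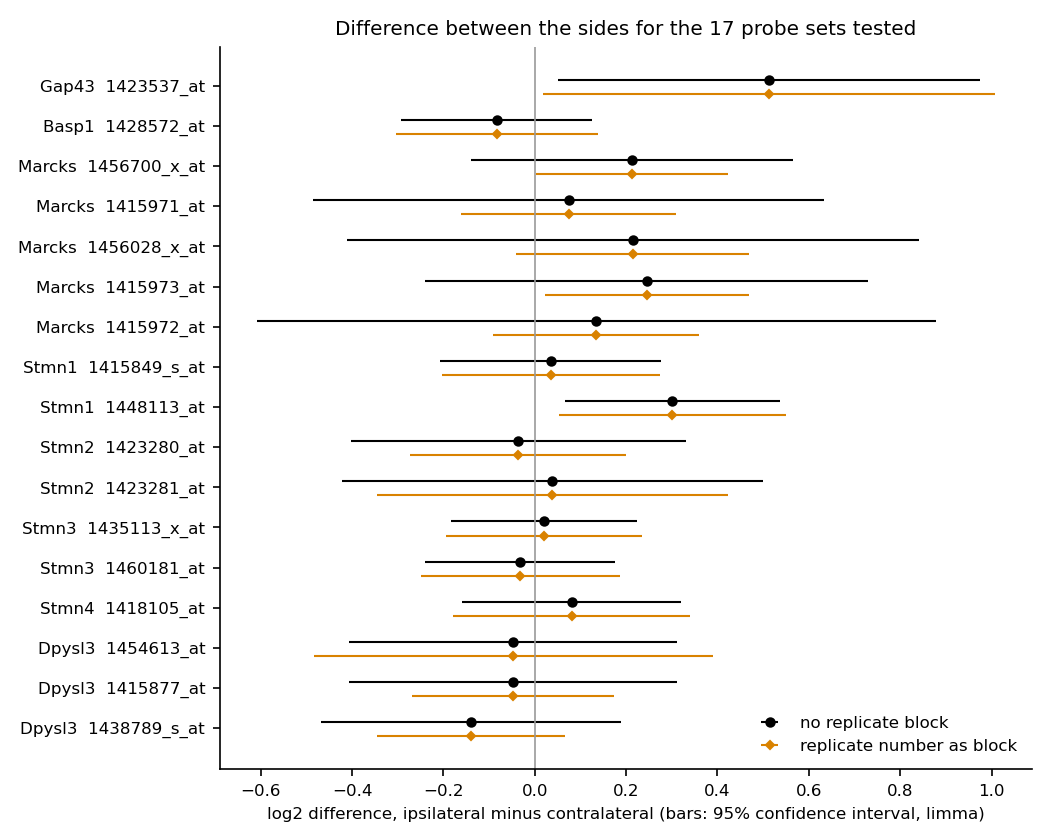
Log2 difference, ipsilateral minus contralateral, with 95% confidence intervals from limma for the 17 member probe sets tested, without the replicate block (black) and with it (orange). The intervals of Gap43 (difference 0.51) and Stmn1 1448113_at (0.30) lie above 0 in both fits, starting at 0.02 and 0.05 with the block. The Marcks intervals shorten with the block, so that 2 of the 5 lie above 0, and the other intervals include 0. The intervals are not adjusted for the number of probe sets.

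Stmn1 encodes the small cytosolic stathmin found in many dividing and growing cells, and its 2 probe sets gave different sizes. Probe set 1448113_at measured 9.62, 9.83 and 9.58 on ipsilateral arrays 1, 2 and 3, against 9.35, 9.37 and 9.40 on contralateral arrays 1, 2 and 3. Every ipsilateral array was above every contralateral array, which was so for 1 of the 17 member probe sets and 2.82% of all tested, while 0 of the 17 and 3.44% of all tested lay wholly lower. The difference was 0.30 (SE 0.10, 95% confidence interval 0.07 to 0.54, limma adjusted p = 1.00). The brighter set, 1415849_s_at, measured 11.83, 12.04 and 11.79 on the ipsilateral arrays, against 11.79, 11.89 and 11.88 on the contralateral arrays, and the sides overlapped with a difference of 0.03 (95% confidence interval -0.21 to 0.28). Both sets are annotated to the same transcript record, the name _s_at marks probes shared by several transcripts, and the difference between the 2 sets was not tested. Averaged over both sets Stmn1 differed by 0.17. Leaving out any array or replicate number kept the Stmn1 1448113_at difference between 0.22 and 0.36, and with the choroid plexus marker mean as a covariate it was 0.27, with an unadjusted limma p no longer under 0.05.

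The neuronal stathmins have a membrane anchor that the cytosolic form lacks, and none differed beyond the spread of its arrays. Stmn2, also called SCG10, is enriched in growth cones. Its set 1423280_at measured 10.90, 10.90 and 11.34 on the ipsilateral arrays, against 10.95, 11.05 and 11.26 on the contralateral arrays, a difference of -0.04 (95% confidence interval -0.40 to 0.33). Its other set, 1423281_at, was higher on the infused side by 0.25 and 0.20 in replicates 1 and 3 and lower in replicate 2, at 10.30 ipsilaterally and 10.64 contralaterally. Both sets were highest in replicate 3 on both sides, as Marcks was.

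Stmn3, also called SCLIP, varied little over the arrays. Probe set 1435113_x_at measured 13.56, 13.62 and 13.69 on the ipsilateral arrays, against 13.59, 13.61 and 13.60 on the contralateral arrays, and 1460181_at measured 12.11, 12.19 and 12.13 ipsilaterally, against 12.21, 12.21 and 12.09 contralaterally. Their differences of 0.02 and -0.03 had 95% confidence intervals that ended at 0.22 and 0.18 on the higher side and at -0.18 and -0.24 on the lower side. Stmn4, also called RB3, measured 10.23, 10.40 and 10.22 on the ipsilateral arrays, against 10.12, 10.18 and 10.31 on the contralateral arrays. Its difference was 0.08 (95% confidence interval -0.16 to 0.32), and replicate 3 had the opposite sign of replicates 1 and 2.

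Dpysl3, also called CRMP4, had 3 probe sets that were lower on the infused side by 0.05 to 0.14, each with an interval that includes 0. The dimmest, 1438789_s_at, measured 4.16, 4.42 and 4.06 on the ipsilateral arrays, against 4.29, 4.56 and 4.21 on the contralateral arrays. It was lower in 3 of 3 replicates, by differences of -0.13, -0.14 and -0.15, yet the sides overlapped, and the 95% confidence interval ran from -0.47 to 0.19 without the block and from -0.35 to 0.07 with it. Set 1415877_at measured 6.85, 7.06 and 6.73 on the ipsilateral arrays, against 6.94, 7.16 and 6.68 on the contralateral arrays. These 2 sets followed the same course over the arrays (Pearson r = 0.91, 6 arrays), and the brightest, 1454613_at, did not share their course (r = -0.12 and 0.08), at 7.65, 8.11 and 7.83 ipsilaterally, against 7.96, 7.72 and 8.06 contralaterally.

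Dpysl2, also called CRMP2, is known as an abundant brain protein, but its 1 probe set was dim. It measured 4.04, 4.01 and 3.51 on the ipsilateral arrays, against 3.58, 3.72 and 4.22 on the contralateral arrays. The sign of the side difference changed between replicates, and the mean of 3.85 fell under the minimum of 4 set for testing, so these arrays give no result for Dpysl2. Just above that minimum lay Dpysl3 1438789_s_at, with a mean of 4.28.

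The course of Gap43 over the 6 arrays was compared with that of 8746 other genes, as a description over few arrays of both sides. The 5 most like it were Prpf39, a splicing factor (Pearson r = 0.99), the palmitoyltransferase gene Zdhhc9 (0.98), Dnajc28 (0.98), Fstl1, a secreted glycoprotein gene (0.98), and Rnf145 (0.98). The 5 most opposite were Gm11517 and Adamts1, a secreted metalloprotease gene (-0.98 each), Ppp1r14b (-0.98), Dhrs7b (-0.97) and Mtmr3 (-0.97). A correlation above 0.9 was found for 92 genes and one below -0.9 for 63. Prpf39 measured 8.32, 8.56 and 8.53 on ipsilateral arrays 1, 2 and 3, against 8.32, 8.10 and 8.31 on contralateral arrays 1, 2 and 3. Among the members Marcks was the nearest to Gap43 (0.73) and Basp1 the farthest (-0.16).

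Genes that act with the members were counted list by list. Of 5 other genes of the same protein families tested, 3 were higher and 2 lower, with 1 at an unadjusted limma p under 0.05, beside 2.43% of all genes tested, 1.11% higher and 1.33% lower. That gene was Crmp1, a further collapsin response mediator protein, which measured 9.28, 9.43 and 9.46 on the ipsilateral arrays, against 9.23, 9.12 and 9.13 on the contralateral arrays. The sides did not overlap, and the difference was 0.23 (95% confidence interval 0.01 to 0.46, limma adjusted p = 1.00). By replicate it was 0.05, 0.31 and 0.33, again larger in replicates 2 and 3, and with the block the interval ran from -0.03 to 0.49. The Crmp1 difference was 0.18 with the choroid plexus marker mean as a covariate and 0.12 with ipsilateral arrays 2 and 3 left out, and its unadjusted limma p was under 0.05 in neither.

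Of 19 kinase and phosphatase genes for these proteins, 12 were higher and 7 lower (median 0.07), and 0 had an unadjusted limma p under 0.05. Ppp3ca, a catalytic subunit of calcineurin, which dephosphorylates GAP-43, differed by 0.25, Ppp3cb, another catalytic subunit, by -0.08 and Cdk5r2, an activator of the kinase Cdk5, by -0.57. Of 7 genes for RNA-binding proteins, a group that includes the Hu proteins that stabilize Gap43 mRNA, 2 were higher and 5 lower (median -0.11), with Hnrnpd at -0.11 and 0 at an unadjusted limma p under 0.05.

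Of 22 regeneration-associated genes tested, 11 were higher and 11 lower (median 0.005). At an unadjusted limma p under 0.05, 2 were higher, Gadd45a (0.73) and Jun (0.47), and 1 was lower, the neuropeptide gene Adcyap1 (-1.23). Jun encodes a transcription factor known for its induction in injured neurons, and it measured 8.56, 8.62 and 9.03 on the ipsilateral arrays, against 8.06, 8.37 and 8.36 on the contralateral arrays. The sides did not overlap, and the infused side was higher in 3 of 3 replicates with a 95% confidence interval of 0.10 to 0.85 (limma adjusted p = 1.00). The Jun difference was 0.37 with the choroid plexus marker mean as a covariate and 0.30 with ipsilateral arrays 2 and 3 left out, and its unadjusted limma p was under 0.05 in neither. Atf3 and Sprr1a, which mark axotomized neurons, were among 8 genes of this list too dim to test.

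Of 24 growth cone actin regulators 12 were higher and 12 lower (median -0.01), with Wasl, an activator of the Arp2/3 complex, at -0.13, Arpc2, a subunit of that complex, at -0.12 and the small GTPase gene Rhoa at 0.11. Of 19 genes for growing microtubules 7 were higher and 12 lower (median -0.07). Tubb2a, a neuronal beta-tubulin, differed by -0.23 (95% confidence interval -0.44 to -0.02), Mapt, the axonal protein tau, differed by -0.34 and the kinesin gene Kif2a by 0.23. Of 19 guidance genes 7 were higher and 12 lower (median -0.04), with the repulsive ligand Sema3a at -0.34, the semaphorin receptor Nrp2 at -0.30 and the ephrin gene Efnb1 at -0.20. The Nrp2 difference lay in replicate 1, at -0.90, against -0.0052 and -0.0058 in replicates 2 and 3. Of 15 genes for inhibitors of axon growth and their receptors 12 were higher and 3 lower (median 0.08), with the receptor subunit gene Lingo1 at 0.12 and the proteoglycan gene Vcan at -0.20. At an unadjusted limma p under 0.05 without the block these 4 lists held 1 gene in all, Tubb2a, beside 2.43% of all genes tested. With the replicate block they held 3, all lower on the infused side. In that fit 3.72% of all probe sets tested had such a p, 1.75% higher and 1.97% lower. The 3 were Tubb2a, Mapt (95% confidence interval with the block -0.58 to -0.10) and Sema3a (-0.66 to -0.02). No set test was run on these lists. By limma 0 genes of any list passed the adjusted threshold.

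**Figure D5:**
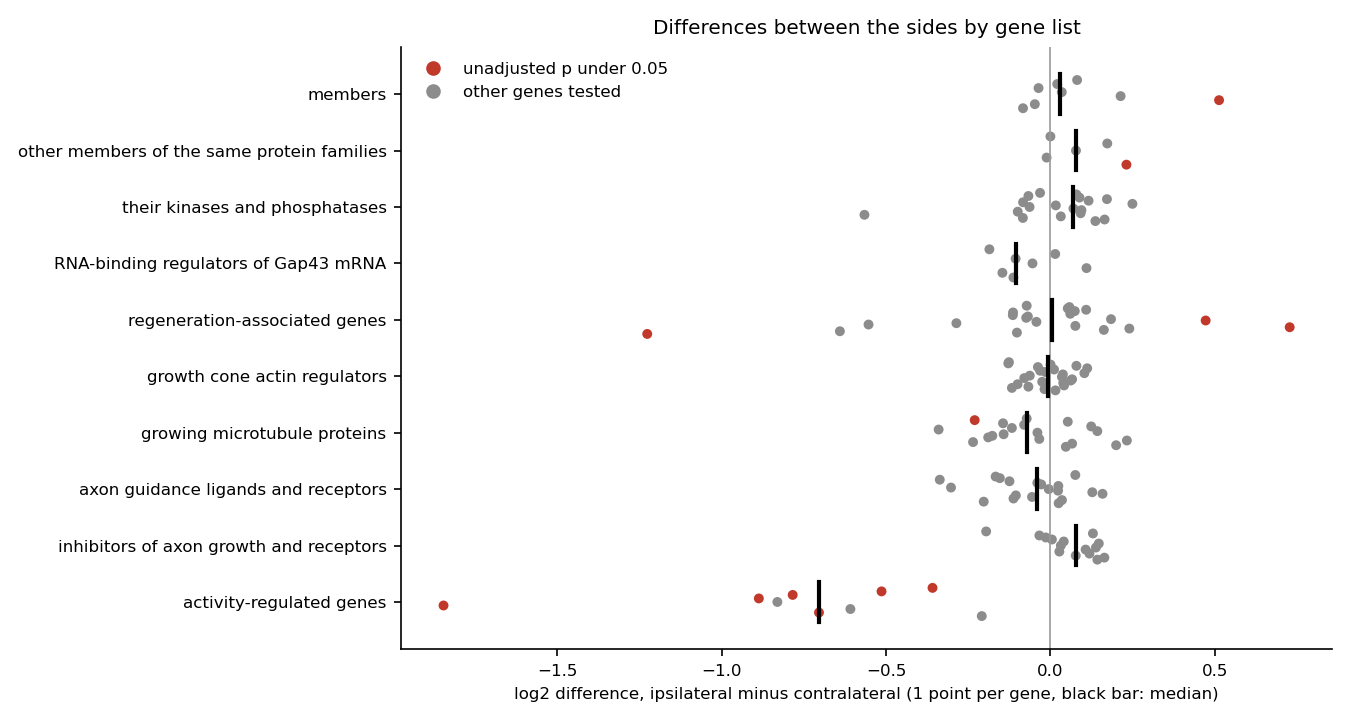
Log2 difference, ipsilateral minus contralateral (horizontal axis), of each gene tested in 10 lists, 1 point per gene by its brightest probe set, with the list median as a black bar and genes at an unadjusted limma p under 0.05 in red. The members and the lists of axon growth genes centre near 0, from -0.11 to 0.08, and the activity-regulated genes centre at -0.70.

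Genes that neurons induce when they fire are listed beside the members, and earlier results of these arrays already had them lower. On the infused side 9 of the 9 tested were lower (median -0.70), among them the transcription factor gene Fos at -1.85 and the G protein regulator genes Rgs2 at -0.78 and Rgs4 at -0.51. Their mean was 7.38, 7.69 and 7.54 on ipsilateral arrays 1, 2 and 3, against 8.45, 8.50 and 7.90 on contralateral arrays 1, 2 and 3. This mean was lower on the infused side within each replicate number, also in replicate 1, where Gap43 differed by 0.08. A link between these genes and the Gap43 difference was not tested.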

How the data were processed

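The authors deposited log2 GCRMA expression values per probe set for 6 arrays (the scale was read from the values, 1.40 to 16.0), and GCRMA is named in the submitters' processing notes, with version and settings not given in the sources used here. GCRMA corrects background by probe sequence, normalizes between arrays and shrinks dim probe sets toward a floor, so differences of dim genes are uncertain and a change common to most genes is removed. Each sample's description gave its side and replicate number, and the series calls the replicates biological. The annotation of the platform named 20393 probe sets with 1 symbol, 691 had several and 1606 none. Control probe sets (64) and 7328 with a mean of 4 or less were left out.

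The remaining 15298 were fitted with lmFit and eBayes of limma (version 3.58.1, under R version 4.3.3), ipsilateral minus contralateral, without a block, with Benjamini-Hochberg adjustment over all of them and a threshold of 0.05. Data were simulated for this comparison with the real means of these 15298 probe sets, 200 of them changed. The spreads were limma's estimates, which are drawn toward a common value, so the noisiest probe sets were simulated with less noise than measured. On these data the fit called 87.2% of log2 changes of 1 and 99.3% of changes of 2 on average over 10 runs. Of its calls 4.91% were false. Smaller changes were not simulated. Noise was drawn independently for each probe set and array, so variation shared by many probe sets was not simulated either. On the real arrays Fos differed by -1.85 with an adjusted limma p of 0.9998. These shares therefore do not give the power of the real comparison. For counts of genes, the brightest tested probe set stands for its gene. Arrays give no read depth, so their number limits the precision. With 3 arrays a side, 0.1 is the smallest two-sided p of an exact permutation test. The members and lists were chosen with earlier results of these data known. All probe sets of the members were named, in each other list up to 3 genes by smallest p with the same sign in 3 of 3 replicates, Fos, and the 5 genes most like and most unlike Gap43. Marker lists are given mainly by counts and means.

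Same-numbered samples were read as both sides of the same mice, from the series' description of 1 infused ear and pools by replicate, though no label states it. Their deviations from the side means correlated at 0.09, 0.04 and 0.57 for replicates 1, 2 and 3 across probe sets, while samples of different numbers correlated between -0.37 and 0.30. The alternatives were the replicate block, other filters, quantile normalization, median centring, a trended robust variance, array weights, leaving out probe sets that can bind several transcripts, the mean of a gene's probe sets, the choroid plexus marker mean as a covariate, and leaving out each array and each replicate number.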

Additional observations from a re-analysis of the deposited data

How the results depend on the processing

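Over 23 other settings 0 member probe sets passed the adjusted threshold. Gap43 stayed positive, at 0.17 with both ipsilateral arrays low in choroid plexus markers left out (chosen after seeing the data) and from 0.28 to 0.73 when an array or replicate number was left out. Between 0 and 5 of all probe sets passed when an array or replicate number was left out, 5 of them without ipsilateral replicate 1 and 2 without both arrays of replicate 1. The count of member probe sets at an unadjusted limma p under 0.05, 2 as reported, was 4 with the replicate block, 1 with array weights, 1 with the mean of a gene's probe sets (counted as genes), 0 with the choroid plexus covariate, 0 with the arrays low in these markers left out, and 0 to 3 when an array or replicate number was left out. With the block on all 6 arrays 0 probe sets passed the adjusted threshold, as without it, and with the block and replicate 1 left out 0 passed, against 2 without the block.

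The small differences changed sign, and the cause was not tested. The member genes' median was -0.0069 with the choroid plexus covariate and -0.034 without the arrays low in these markers. With the covariate, Marcks 1415972_at was -0.0065, Stmn1 1415849_s_at -0.0014, Stmn2 1423281_at -0.014, Stmn3 1435113_x_at -0.012, Col1a1 -0.012 and Igf2 0.030. Without the arrays low in these markers, Marcks 1415971_at was -0.0021, Marcks 1415972_at -0.066, Stmn1 1415849_s_at -0.023, Stmn2 1423281_at -0.035, Stmn3 1435113_x_at -0.044, Cnp -0.017, Col1a1 -0.073 and Igf2 0.18. With the mean of all probe sets, Stmn2 was 0.0010 and Stmn3 -0.0055. When an array or replicate number was left out, Dpysl3 1415877_at ranged from -0.17 to 0.068, Dpysl3 1454613_at from -0.27 to 0.085, Marcks 1415971_at from -0.13 to 0.27, Marcks 1415972_at from -0.12 to 0.44, Stmn1 1415849_s_at from -0.042 to 0.10, Stmn2 1423280_at from -0.18 to 0.050, Stmn2 1423281_at from -0.13 to 0.22, Stmn3 1435113_x_at from -0.015 to 0.053, Stmn3 1460181_at from -0.072 to 0.0039, Hnrnpd from -0.23 to 0.025 and, among cell type markers, Col1a1 from -0.010 to 0.14, Gja1 from -0.012 to 0.088 and Igf2 from -0.37 to 0.024. With the replicate block and a replicate number left out, Dpysl3 1454613_at was 0.085 without replicate 1 and 0.041 without replicate 3, Stmn1 1415849_s_at -0.025 and Stmn2 1423280_at 0.019 without replicate 2, Stmn2 1423281_at -0.068 without replicate 1 and -0.042 without replicate 3, Stmn3 1435113_x_at -0.013 without replicate 3 and Stmn3 1460181_at 0.0039 without replicate 1.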
